A study of Mus musculus with 8 samples.

Results

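The 38 genes described here encode the core machinery of autophagy and were taken by symbol from a list of named genes, drawn up with earlier results of these data known, out of 19826 genes in the deposited table. No threshold on their values was applied. They comprise 5 genes of the initiation kinase complex, 6 of the class III PI3K complex, 5 that place and supply the growing membrane, 9 of the conjugation machinery, 4 of the ATG8 family, 5 cargo receptors, 2 mitophagy receptors and 2 transcription factors. All 38 were matched by symbol and all 38 passed the filter on low values. They were measured by RNA-seq of polyadenylated RNA from CD4+ YFP+ regulatory T cells (Treg), sorted from spleen and peripheral lymph nodes of untreated C57BL/6 mice. The WT group held 4 libraries from Foxp3 YFP-Cre/+ Pdpk1 +/+ mice, and the group labelled Pdpk1 KO held 4 libraries from Foxp3 YFP-Cre/+ Pdpk1 FL/FL mice. The second group is called FL/FL by its genotype. Every mouse thus carried the Cre allele of Foxp3 beside an unmodified one, so that Cre acts only in cells that express Foxp3 from the YFP-Cre copy, and the sort for YFP keeps those cells. The sources used here give neither age nor the number of mice per library, and a p-value here speaks only of how these 8 libraries scatter.

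Autophagy encloses cytoplasm in a double membrane, the autophagosome, and delivers it to lysosomes for breakdown. A kinase complex around ULK1 starts the process, a lipid kinase complex marks the membrane, and a conjugation system attaches ATG8 proteins such as LC3 to lipid, where receptors dock cargo. Pdpk1 encodes the kinase PDK1, which activates AKT; AKT in turn keeps FoxO factors out of the nucleus and promotes mTORC1, and mTORC1 phosphorylates ULK1, ATG13, TFEB and TFE3. Much of this control acts on proteins, which were not measured here. Treg depend on autophagy for their stability, and loss of its core genes in Treg is known to impair them.

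A normalized count is a gene's read number divided by a size factor of its library, and the libraries held 17448095 to 26299577 recovered reads. Pdpk1 ranged from 1923.3 to 2599.6 normalized counts in WT and from 1656.4 to 2505.5 in the FL/FL libraries (log2 change -0.17, 95% interval -0.45 to 0.11, exact two-sided permutation p = 0.286). The value sums all exons, which of them are floxed was not given in the sources used here, and it does not check the deletion. Foxp3, the defining Treg gene, was between 4418 and 6340.5 in every library (exact permutation p = 0.6), and the mean log2 level of 6 Treg markers was 12.9 to 13.0 in WT and 12.7 in FL/FL (exact permutation p = 0.0286, adjusted p = 0.0715 over 5 marker lists). Within that list Ikzf2 fell (log2 change -1.13, limma adjusted p = 4.45e-06) and Il2ra rose (0.63, limma adjusted p = 0.00114). Of 17 tested macrophage markers 7 were higher in FL/FL (41.2%, against 4.41% of all genes) and Axl was lower. The mean log2 level of the 19 listed markers overlapped between the groups. It ran from 3.13 to 6.01 in WT and from 5.22 to 7.53 in the other group (exact permutation p = 0.0857, adjusted p = 0.143). Summed without Axl these markers came to between 324.7 and 1915.8 normalized counts in WT and between 1675.9 and 5965.5 in the FL/FL libraries. Cd14, Mertk, Marco, Spic, Fcgr1 and Vsig4 were each at 0 in at least 1 library. Erythroid markers summed to between 6.83 and 309.9 normalized counts with overlapping groups. CD8 markers had mean log2 levels of 4.88 to 6.72 in WT and 6.93 to 7.36 in the other group (exact permutation p = 0.0286, the smallest 4 against 4 can give, adjusted p = 0.0715). Of the 3 B cell markers tested, Cd79b and Cd22 were lower and Cd79a was at a log2 change of 0.73, not past the threshold. The part of these other cell types in the results was not tested; for the calls named below, values with the macrophage level in the fit are given. In bulk samples, fewer cells of a type and less RNA per cell cannot be told apart.

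Per length, the autophagy genes spanned a wide range in WT Treg. Levels between genes are given here as normalized counts per kb of annotated exon. This length joins the exons of all annotated transcripts of a gene and can exceed that of any single transcript. For Rb1cc1 it is 14.69 kb, against 7607 bases for its longest protein-coding transcript. The order of the genes therefore depends in part on the annotation. Gabarap, an ATG8 family gene, stood highest at 2130 ± 388 per kb in WT (SD, n = 4), followed by the cargo receptor gene Sqstm1, which encodes p62, at 1680 ± 111. The ranges of these 2 genes over the WT libraries overlapped. Next came the mitophagy receptor gene Bnip3l at 858 ± 82.4 and the ATG8 gene Gabarapl2 at 546 ± 42.8, each without overlap with the gene above it. The middle of the list was dense: 22 genes from Atg101, at 511 per kb, to Atg7 and Rb1cc1, at 114 and 109, followed each other closely, and neighbours in rank overlapped in WT except Atg3 with Ambra1 and Becn1 with Ulk2. At the bottom were Bnip3 at 28.7 ± 5.52, Atg4c at 14.7 ± 6.66, Optn at 10.1 ± 1.31 and Wipi1 at 1.54 ± 1.64 per kb. Within the ATG8 family, Map1lc3b had the second highest normalized count but, over a longer annotated exon length, 357 ± 23.7 per kb. Gabarapl1 had 135 ± 16.2. Between the paralogs Bnip3l and Bnip3 the former dominated, and of the paralogs Wipi1 and Wipi2 nearly all reads belonged to Wipi2, at 164 ± 15.5 per kb.

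In limma 3 of the 38 autophagy genes passed the threshold between the groups, a share near that of all genes tested. Tax1bp1, Wipi2 and Rb1cc1 rose in the FL/FL libraries, by 1.27 to 1.32-fold, 0 fell and 35 were not past the threshold (limma over all 13847 genes tested, Benjamini-Hochberg adjusted p under 0.05). That is 7.89% of the 38, where 9.47% of all tested genes were called; among all genes 4.41% were higher and 5.06% lower. At an unadjusted p under 0.05 there were 9 members, 5 higher and 4 lower, or 23.7%, against 23.0% of all genes. The groups did not overlap at all in 7 members (18.4%), against 15.3% of all genes. On recovered reads edgeR called the same 3 higher and 0 lower, with 9.06% of all genes called. DESeq2 called 4 higher and 3 lower, 18.4% of the members, where it called 12.6% of all genes. The median log2 change of the members was 0.02, against -0.01 over all genes, and the median absolute change 0.115. The latter was 0.228 over all tested genes. It was 0.138 for the 3067 tested genes whose mean lay between the members' quartiles (653.7 and 1782.6 normalized counts). The 38 members were not held to that range, and by its definition some of them lie below it and some above. For 28 of the 38 the 95% interval lay within a 1.5-fold change in either direction. That is 73.7%, against 44.8% of all tested genes and 81.4% of those 3067 genes. The other intervals, of Wipi1, Optn, Bnip3, Atg4c, Atg9a, Atg10, Atg2a, Atg7, Tfeb and Tfe3, reached further.

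**Figure D1:**
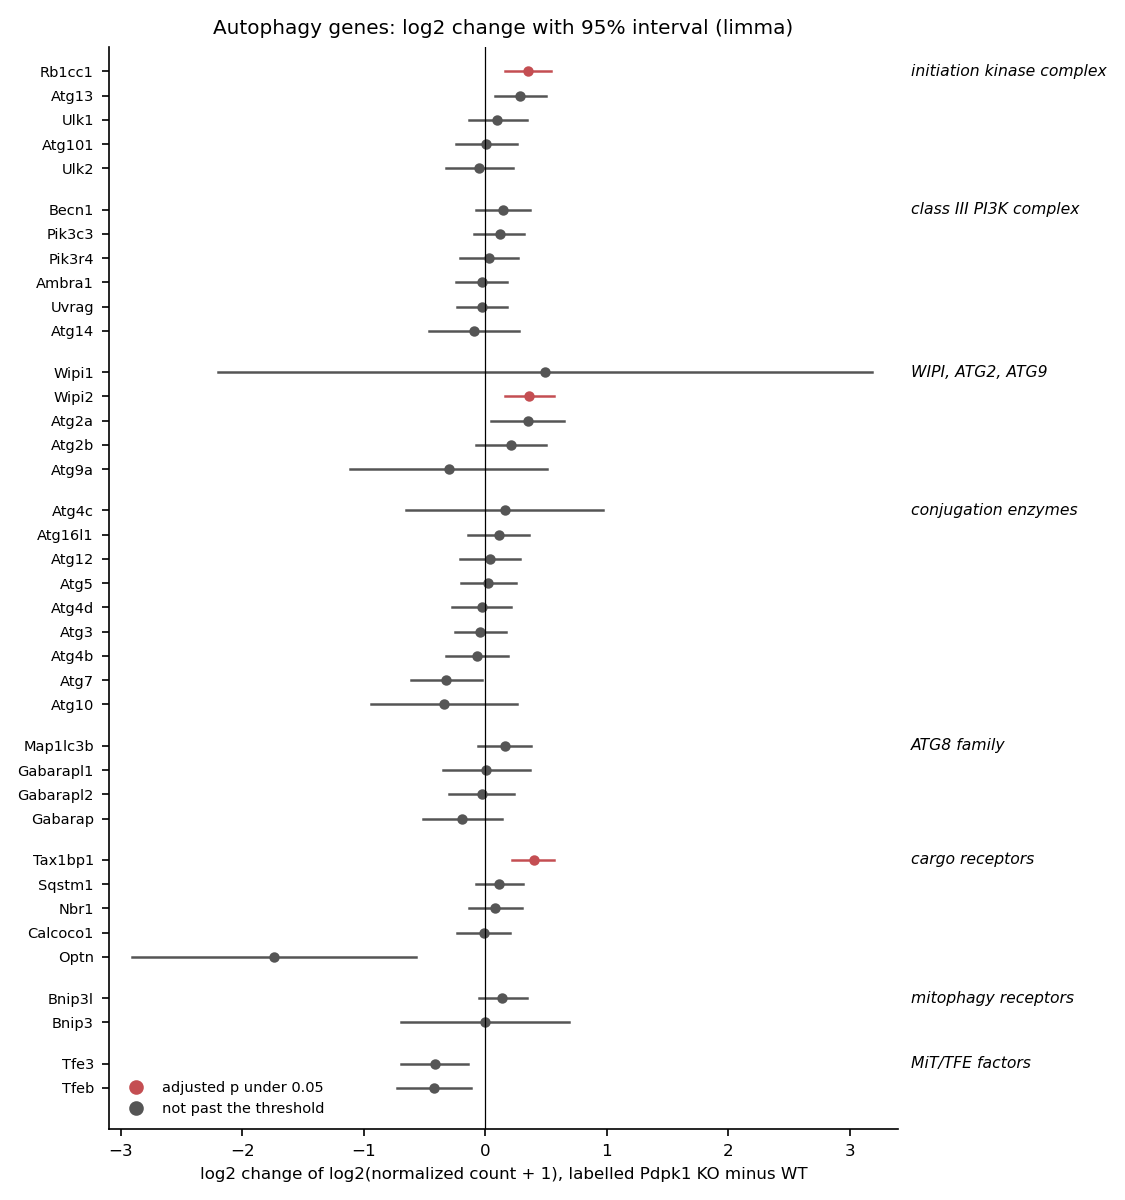
Log2 change (labelled Pdpk1 KO minus WT, on the log2(normalized count + 1) scale) of each autophagy gene with its 95% interval from limma, by role in the pathway, with 4 libraries per group. Rb1cc1, Wipi2 and Tax1bp1 (red) were past the threshold; most other intervals are narrow and span 0, while those of Wipi1, Optn, Atg9a and Atg4c are wide.

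In the initiation complex the scaffold gene rose and the kinase genes did not pass the threshold. Rb1cc1 encodes FIP200, the scaffold that holds the ULK kinase (ENSMUSG00000025907, GRCm38 chromosome 1, 6206197 to 6276648, plus strand). It stood at 1594, 1645.8, 1548.5 and 1610.7 normalized counts in WT replicates 1 to 4 and at 2218.7, 1948.3, 1959.1 and 2014 in FL/FL replicates 1 to 4. Every FL/FL library lay above every WT library. The log2 change was 0.35 ± 0.09 (SE, adjusted p = 0.0226). The call was lost without any 1 of 3 libraries (adjusted p = 0.0564 to 0.0593) and with the mean log2 level of the macrophage markers in each library as a covariate (0.38, adjusted p = 0.0861). An antisense gene overlaps 3.8% of its exon length. Atg13, the adaptor that links the kinase to FIP200, ranged from 1379 to 1556.8 in WT and from 1667.8 to 2038.1 in the other group, again without overlap. Its log2 change of 0.29 ± 0.10 was not past the threshold in limma (adjusted p = 0.0846) and was in DESeq2 (adjusted p = 0.0474). The kinase genes Ulk1 and Ulk2 had log2 changes of 0.10 and -0.05, with 95% intervals of -0.13 to 0.34 and -0.32 to 0.23. The subunit gene Atg101 was at 0.01 (-0.24 to 0.26).

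Of the 6 genes of the class III PI3K complex, limma, edgeR and DESeq2 each called 0, against 9.47%, 9.06% and 12.6% of all genes. In limma 0 of the 6 had an unadjusted p under 0.05, against 23.0% of all genes. With only 6 genes, these counts do not set the complex apart from all genes. This complex makes the lipid that recruits later factors, with Pik3c3 as the catalytic subunit and Becn1 as its regulator. Becn1 had a normalized count of 1768 ± 163 in WT against 1958 ± 194 in FL/FL (SD, n = 4 each, log2 change 0.15, 95% interval -0.08 to 0.37). Exons of Cntd1 overlap 43.9% of its annotated exon length. Ambra1, which encodes a regulator of Becn1 and ULK1, had 2194 ± 132 and 2156 ± 238. Pik3c3, Pik3r4, Uvrag and Atg14 had log2 changes between -0.09 and 0.12. The 95% intervals of all 6 lay within a 1.5-fold change.

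Among the genes that place and supply the membrane, Wipi2 rose. WIPI2 reads the lipid made by PIK3C3 and brings in the conjugation machinery (ENSMUSG00000029578, chromosome 5, 142627698 to 142670588, plus strand). WT replicates 1 to 4 held 1932.2, 1793.8, 1577 and 1623.9 normalized counts, and FL/FL replicates 1 to 4 held 2332.3, 2106.1, 2211.7 and 2239.3, with no overlap. The log2 change was 0.36 ± 0.10 (SE, adjusted p = 0.0245). The call was lost without any 1 of 4 libraries (adjusted p = 0.053 to 0.0814) and with the mean log2 macrophage level as a covariate (0.43, adjusted p = 0.0611). Its paralog Wipi1 was at 0 to 13.2 normalized counts in WT and 0 to 23.3 in the other group, at most 25 reads in any library, too few to show a difference (95% interval of the log2 change -2.20 to 3.18). The lipid transfer genes Atg2a and Atg2b had log2 changes of 0.35 (adjusted p = 0.142) and 0.21 (adjusted p = 0.398), and in each FL/FL replicate 1 was the highest of all 8, at 1955.2 and 1928.2. Atg9a, encoding the membrane-spanning scramblase, spread more within groups than between them, from 101.9 to 384.4 in WT and from 81.1 to 256 in the other group. Exons of other genes overlap 32.6% of its exon length.

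In the conjugation machinery no gene passed the threshold. Of its 9 genes limma, edgeR and DESeq2 each called 0, against 9.47%, 9.06% and 12.6% of all genes. In limma 1, Atg7, had an unadjusted p under 0.05 (11.1%, against 23.0% of all genes). With only 9 genes, these counts do not set the group apart from all genes. Atg7 encodes the E1-like enzyme that activates ATG8 and ATG12. It stood at 723.7, 878.7, 874.6 and 691.2 in WT replicates 1 to 4 and at 540, 746.2, 662.4 and 593.1 in FL/FL replicates 1 to 4, so that the groups overlapped (log2 change -0.32 ± 0.14 SE, adjusted p = 0.166). The E2-like enzyme genes Atg3 and Atg10 had log2 changes of -0.04 and -0.34, the latter with a 95% interval of -0.94 to 0.26. Atg5, Atg12 and Atg16l1, whose products form the complex that attaches ATG8 to lipid, were at 0.02, 0.04 and 0.11. The proteases that prepare ATG8 proteins, Atg4b, Atg4c and Atg4d, were at -0.07, 0.16 and -0.03. Atg3 and Atg12 had the highest means of the group, 1389 ± 98.8 and 1165 ± 41.8 normalized counts in WT against 1350 ± 101 and 1208 ± 205.

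The ATG8 genes, whose proteins coat the autophagosome, were not called in limma, edgeR or DESeq2, and had no unadjusted p under 0.05. Over all genes the 3 tools called 9.47%, 9.06% and 12.6%, and 23.0% had an unadjusted p under 0.05 in limma. With only 4 genes, these counts do not set the family apart from all genes. Gabarap had 3932 ± 716 in WT and 3456 ± 641 in FL/FL (SD, n = 4 each). Replicate 1 was its lowest library in both groups, at 2922 and 2523.2. Map1lc3b, encoding LC3B, had 2684 ± 178 and 3009 ± 343 (log2 change 0.16, 95% interval -0.06 to 0.38). Gabarapl1, a gene known in muscle as a FoxO target, was at 271 ± 32.6 and 273 ± 32.6 (0.01, -0.35 to 0.37). Gabarapl2 was at -0.03. All 4 intervals lay within a 1.5-fold change. Part of the Gabarapl2 transcript is 95% or more identical to 3 processed pseudogenes over 300 bases or more, so its count is uncertain in that respect. Matches of this kind in genes elsewhere in the genome were found for 4 of the 38 members, Gabarapl2, Bnip3, Bnip3l and Uvrag, and exons of other genes overlap 28.3% of Gabarapl1, 19.3% of Atg4d and 17.6% of Uvrag.

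Of the cargo receptors, Tax1bp1 rose, while the scarce Optn did not pass the threshold. TAX1BP1 links ubiquitin-tagged cargo to ATG8 proteins and also restrains NF-kB signalling (ENSMUSG00000004535, chromosome 6, 52713729 to 52766780, plus strand). In WT replicates 1 to 4 it reached 4345.8, 4670.6, 4826.7 and 4372.7 normalized counts, against 6065.8, 6002.8, 5802.1 and 6072.7 in FL/FL replicates 1 to 4. The lowest of the second group lay well above the highest WT library. The log2 change was 0.40 ± 0.08 (SE, 95% interval 0.22 to 0.57, adjusted p = 0.00606), and the call held when any 1 library was left out (highest adjusted p = 0.0253). It was lost with the macrophage covariate (0.38, adjusted p = 0.0603) and without the 3 libraries highest in macrophage level (0.43, adjusted p = 0.118). Sqstm1 encodes p62, a receptor that is itself degraded by autophagy. It was at 5642 ± 372 and 6109 ± 490 (SD, n = 4 each), a log2 change of 0.11 (-0.08 to 0.31). Exons of Mrnip overlap 17.3% of its exon length. Nbr1 and Calcoco1 were at 0.08 and -0.01.

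Optn, the receptor gene for optineurin, had the largest log2 change of the 38 in absolute size and among the fewest reads, between 6 and 50 per library. It stood at 39.5, 36.5, 32.2 and 43.9 normalized counts in WT replicates 1 to 4 and at 5.59, 20.8, 6.74 and 15.4 in FL/FL replicates 1 to 4. All 4 WT libraries lay above all 4 of the other group. The log2 change of -1.74 ± 0.55 (SE) was not past the threshold in limma (adjusted p = 0.0604) or edgeR (adjusted p = 0.1) and was in DESeq2 (adjusted p = 0.0344). It was -2.04 and called without FL/FL replicate 2 (adjusted p = 0.043), and -1.17 and called with a pseudocount of 10 in place of 1 (adjusted p = 0.036). The highest adjusted p with any 1 library left out was 0.159. Optn was not called with the macrophage covariate (-1.98, adjusted p = 0.17). Nor was it called without the 3 libraries highest in macrophage level (-1.92, adjusted p = 0.197). The mitophagy receptor gene Bnip3l, which marks mitochondria for removal and is abundant in maturing red cells, was at 3310 ± 318 in WT and 3641 ± 145 in the FL/FL libraries (log2 change 0.14, -0.05 to 0.34). Its paralog Bnip3, a hypoxia-inducible gene and a FoxO target in muscle, was at 64.9 ± 12.5 and 65.4 ± 15.6 (0.00, -0.69 to 0.69). Stretches of 300 bases or more of the Bnip3 and Bnip3l transcripts recur at 95% or more identity in other annotated genes, so both counts are uncertain in that respect; exons of other genes overlap 22.3% of Bnip3.

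**Figure D2:**
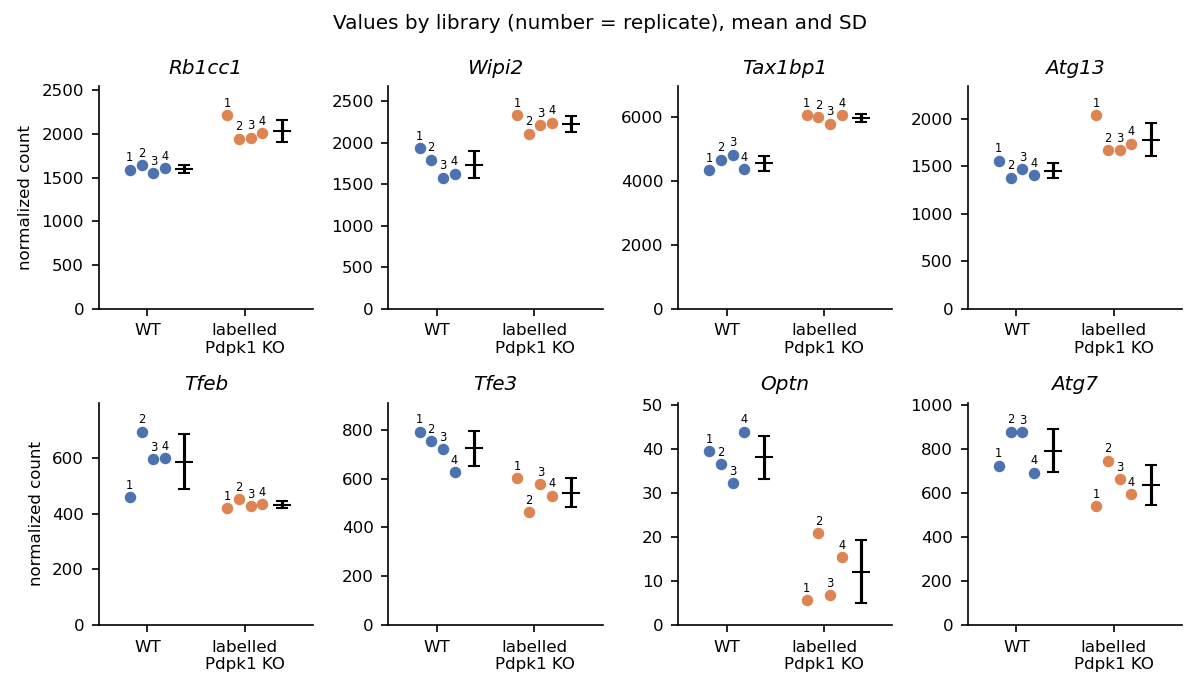
Normalized counts (axes from 0) of 8 autophagy genes in each library, numbered by replicate, with the mean and SD of each group (n = 4). In Rb1cc1, Wipi2, Tax1bp1 and Atg13 the libraries labelled Pdpk1 KO lie above all WT libraries, in Tfeb, Tfe3 and Optn below them, and in Atg7 the groups overlap.

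The genes of the transcription factors TFEB and TFE3 were both lower in every FL/FL library than in any WT library, and neither passed the threshold in limma. These related factors enter the nucleus when mTORC1 is inactive and switch on lysosomal and autophagy genes. Tfeb (ENSMUSG00000023990, chromosome 17, 47737030 to 47792419, plus strand) was at 457.7, 694.2, 594.7 and 599.8 normalized counts in WT replicates 1 to 4 and at 419, 451.5, 425.5 and 432.7 in FL/FL replicates 1 to 4. WT replicate 1 lay close to the second group. Its log2 change was -0.42 ± 0.14 (SE, adjusted p = 0.078), and -0.54 without WT replicate 1 (adjusted p = 0.023). The highest adjusted p with any 1 library left out was 0.215. Tfeb was at -0.64 and called with the macrophage covariate (adjusted p = 0.0473). Without the 3 libraries highest in macrophage level it was at -0.36 and not called (adjusted p = 0.431). Tfe3 (ENSMUSG00000000134, chromosome X, 7762560 to 7775202, plus strand) was at 793.6, 754.6, 719.9 and 627.9 in WT and at 603.3, 463.5, 577.1 and 530 in the other group, in the same order of replicates. Its log2 change was -0.41 ± 0.13 (SE, adjusted p = 0.0567), and -0.47 without FL/FL replicate 1 (adjusted p = 0.0471). The highest adjusted p with any 1 library left out was 0.151. Tfe3 was at -0.32 with the macrophage covariate (adjusted p = 0.366). Without the 3 libraries highest in macrophage level it was at -0.33 (adjusted p = 0.428). The gap between the groups was narrow in both genes, from 451.5 to 457.7 and from 603.3 to 627.9. DESeq2 called both, with adjusted p = 0.0387 for Tfeb and 0.0312 for Tfe3, and edgeR neither, with 0.0669 and 0.0608.

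TFEB and TFE3 bind CACGTG, the E-box core of their lysosomal target promoters, so the members' promoters were searched for it. RefSeq windows on GRCm38.p6, from 250 bases before to 50 after a start site, were present for 32 of the 38 members. CACGTG, which reads the same on both strands, occurred in 5 of these genes (15.6%), Atg3, Atg5, Atg7, Atg14 and Bnip3, against 8.09% of all 27025 genes with a window. The 8-base form TCACGTGA, which contains CACGTG, occurred in Atg3 only, against 1.12% of all genes. The FoxO motif GTAAACA, searched on both strands, occurred in 0 of 32, against 4.05% of all genes. The E-box occurrences are shown as 30 bases each on the strand of the gene, with CACGTG in capitals, since they let the members that carry a match be set beside their values. They lie at chr16:45158723-45158752 and chr16:45158746-45158775 for Atg3, chr10:44268313-44268342 for Atg5 and chr6:114670952-114670981 for Atg7, all on the plus strand. On the minus strand they lie at chr14:47568418-47568447 for Atg14 and chr7:138909597-138909626 for Bnip3. The stretches of Atg7 and Atg14 lie inside the annotated genes, at start sites other than the outermost. These genes span chromosome 6, 114643097 to 114860614, and chromosome 14, 47540893 to 47570649.
Atg3, first match: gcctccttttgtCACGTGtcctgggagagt
Atg3, second match: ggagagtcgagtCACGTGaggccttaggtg
Atg5: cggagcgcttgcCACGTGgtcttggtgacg
Atg7: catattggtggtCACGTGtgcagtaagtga
Atg14: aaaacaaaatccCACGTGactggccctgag
Bnip3: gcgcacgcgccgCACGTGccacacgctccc

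The second Atg3 match is the one flanked by T and A. None of these 5 genes passed the threshold: their log2 changes were -0.04 for Atg3, 0.02 for Atg5, -0.32 for Atg7, -0.09 for Atg14 and 0.00 for Bnip3. Wipi2 and Tax1bp1, which rose, had no CACGTG in their windows, and Rb1cc1 had no window in the table. A match describes the letters only and does not show binding.

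Genes around autophagy were read from 5 further lists. Of 121 tested, 7 rose and 3 fell (8.26%, near the 9.47% of all genes). These counts were 2 and 2 when the mean log2 macrophage level of each library entered the fit as a covariate, and 1 and 0 when WT replicate 2 and FL/FL replicates 2 and 3, which had the highest macrophage level, were left out. The 27 tested among 30 other autophagy genes gave 1 higher and 0 lower in limma, edgeR and DESeq2 alike (3.7%). Over all genes these tools called 9.47%, 9.06% and 12.6%. Of the 27, 6 had an unadjusted p under 0.05 in limma (22.2%, against 23.0% of all genes). The one that rose was Tecpr1, which encodes a tether of autophagosomes and lysosomes, from 6756 ± 459 to 8520 ± 394 normalized counts (SD, n = 4 each, log2 change 0.34, adjusted p = 0.0239). Its groups did not overlap, and without FL/FL replicate 3 or 4 or WT replicate 2 or 4 it was at 0.30 to 0.33 and not past the threshold (highest adjusted p = 0.0839). It also lost the call with the macrophage covariate (0.41, adjusted p = 0.0508), with quantile normalization (0.27, adjusted p = 0.0513) and without the 3 libraries highest in macrophage level (0.32, adjusted p = 0.299). Of 15 tested genes of autophagosome fusion 0 were called by any of these tools. In limma 2 of them had an unadjusted p under 0.05 (13.3%, against 23.0% of all genes). With only 15 genes, these counts do not set the list apart from all genes. The most abundant there were Rab7, the late endosome GTPase, and Vps16, a tethering subunit, at log2 changes of 0.09 and 0.02.

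Among lysosomal enzymes and membrane proteins, 4 of 42 tested rose and 1 fell, 11.9% where 9.47% of all genes were called, with a median log2 change of 0.01. The sialidase gene Neu1 rose from 1290 ± 153 to 1943 ± 254 (SD, n = 4 each, log2 change 0.59, adjusted p = 0.00439). The cathepsin L gene Ctsl went from 175 ± 46.5 to 341 ± 85.2 (0.96, adjusted p = 0.0124). The cholesterol carrier gene Npc2 rose from 7757 ± 1215 to 10225 ± 738 (0.41, adjusted p = 0.0352). The ion channel gene Tpcn1 was at 0.29 (adjusted p = 0.0458), named after its values were seen. Tpcn1 lost its call without any single library (log2 change 0.26 to 0.32) and in edgeR (adjusted p = 0.0515), and was at 0.37 with the covariate (adjusted p = 0.0815). Npc2 lost it without FL/FL replicate 2, 3 or 4 or WT replicate 1 or 4 (0.30 to 0.41, highest adjusted p = 0.0916). Macrophages express lysosomal genes richly. The mean level of their markers was 1.74 higher on the log2 scale in FL/FL, with overlapping ranges (exact permutation p = 0.0857, adjusted p = 0.143). Whether macrophages had a part in these lysosomal changes was not tested. With the mean macrophage level as a covariate Neu1 was at 0.43, Ctsl at 0.46 and Npc2 at 0.26, without passing (adjusted p = 0.107, 0.316 and 0.37). With WT replicate 2 and FL/FL replicates 2 and 3 left out, they were at 0.59, 0.89 and 0.44, none past the threshold.

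The lysosomal proton pump gave 2 lower and 1 higher of 17, or 17.6% against 9.47% of all genes. Its median log2 change was -0.11, and 14 of its 17 changes were negative, against 7051 of 13847 over all genes. Atp6v0a1, a membrane subunit of the pump, fell from 347 ± 69.8 to 150 ± 36.7 normalized counts (log2 change -1.21 ± 0.21 SE, adjusted p = 0.00191). Every FL/FL library was lower than any WT library. Atp6v0c, the proton-carrying ring subunit, fell by 0.71 on the log2 scale (adjusted p = 0.0262), and Atp6v1d, of the catalytic part, rose by 0.37 (adjusted p = 0.0187). With the macrophage covariate the 3 had log2 changes of -0.98, -0.87 and 0.23, without passing (adjusted p = 0.053, 0.0508 and 0.302). Atp6v0c lost its call without any of 5 single libraries, WT replicates 2, 3 and 4 and FL/FL replicates 1 and 3, at log2 changes of -0.73 to -0.57 (highest adjusted p = 0.0883). Atp6v1d lost its call without FL/FL replicate 2 or 3 or WT replicate 1 (0.32 to 0.37, highest adjusted p = 0.0642). Among 20 tested genes of TFEB and nutrient control, Fnip1 rose and 0 fell in limma, edgeR and DESeq2, with 3 at an unadjusted p under 0.05. FNIP1 is a partner of folliculin, which enables mTORC1 to phosphorylate TFEB. It stood at 894, 936, 705.2 and 791.3 in WT replicates 1 to 4 and 1514.8, 1075, 1146.3 and 1283.5 in FL/FL replicates 1 to 4, without overlap. Its log2 change of 0.59 ± 0.13 (SE, adjusted p = 0.0091) was 0.71 with the macrophage covariate (adjusted p = 0.0226) and 0.81 without the 3 libraries (adjusted p = 0.0197).

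**Figure D3:**
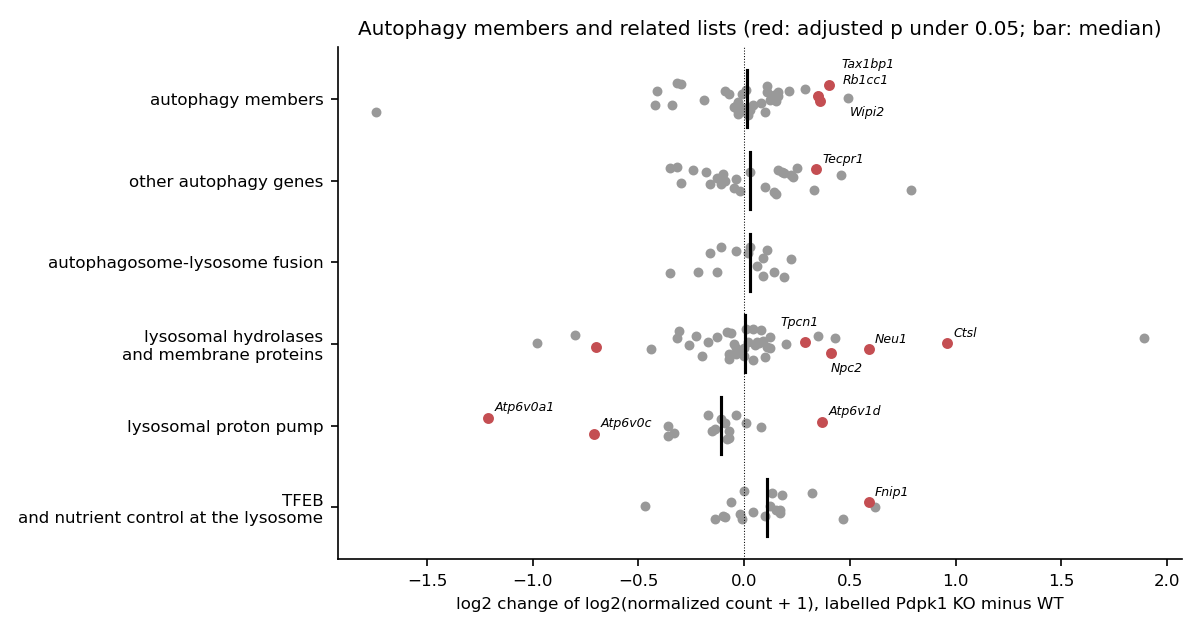
Log2 change (labelled Pdpk1 KO minus WT) of every tested gene of the 38 autophagy members and of 5 related lists, with the median as a bar and genes past the threshold in red, with the names of those described here. Medians lie between -0.11 and 0.11, and the red points fall on both sides of 0 among the lysosomal lists.

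The log2 changes of the 3 members that rose were of similar size when the macrophage markers were taken into account, but the calls were lost. With the covariate they lay between 0.38 and 0.43. Tfeb was then at -0.64 and called (adjusted p = 0.0473), and Tfe3 at -0.32 and not called (adjusted p = 0.366). Neither was called without the 3 libraries highest in these markers, Tfeb at -0.36 and Tfe3 at -0.33 (adjusted p = 0.431 and 0.428). Without WT replicate 2 and FL/FL replicates 2 and 3, the 3 libraries highest in these markers, Rb1cc1 and Wipi2 were both at 0.42 (adjusted p = 0.139 and 0.164), in a fit of 5 libraries in which the calls over all genes went from 1311 to 472. Leaving out any 1 of FL/FL replicate 1, WT replicate 3 or WT replicate 4 ended the calls of Rb1cc1 (log2 change 0.30 to 0.35) and Wipi2 (0.32 to 0.34), and FL/FL replicate 3 also ended that of Wipi2 (0.37).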

How the data were processed

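The deposited table gave 1 signal value per gene and library, a gene's read number over a library size factor from DESeq2, as deposited by the authors, per the file's name and the submitters' processing notes, which name Trimmomatic 0.39, STAR 2.7.6a, SAMtools 1.11, featureCounts of Subread 2.0.1, DESeq2 1.21 and GRCm38. How strand was counted, and on which annotation, is not given in the sources used here; reads of overlapping genes on either strand cannot be told apart. All values were whole multiples of the smallest step within 0.001, which gave back whole reads; a 0 allows up to 3 reads, or 2.56 to 3.38 normalized counts, for counting error only. Of 19826 genes, 19775 matched a GENCODE M21 symbol; positions and exon lengths are from that release.

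Genes with 10 or more normalized counts in at least 4 of 8 libraries were tested: log2(normalized count + 1), limma 3.58.1 (eBayes with trend, R 4.3.3), two-sided, Benjamini-Hochberg over 13847 genes, threshold 0.05. Changes are labelled Pdpk1 KO minus WT and understate those of low genes. edgeR 4.0.16 and DESeq2 1.42.0 were run on the recovered reads. The limma, edgeR and DESeq2 fits of the 2 groups were tested on simulated counts, and the other steps and settings were not. Single values used exact permutation over libraries. Near copies of member transcripts were sought with blastn. The members and lists were chosen with earlier results of these data known. Named genes were all called members, up to 2 others per role by mean, and up to 4 called genes per list, or its 2 most abundant; further genes were named after their values were seen. Prkaa2, Tfec, Calcoco2 and Vamp7 were not analysed here; some single genes of the related and marker lists are counted but not reported by name. Promoter windows are shown only where an E-box matched.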

Additional observations from a re-analysis of the deposited data

Results flagged for a closer look

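In 3 of the 76 groups of 4 values (38 genes in 2 groups) 1 library stood apart from the other 3 by Dixon's test at the 95% level; chance gives this in about 1 of 20 groups. Pik3r4 was at 910.7 normalized counts in WT replicate 4, below the other WT libraries. Atg2b was at 1928.2 in FL/FL replicate 1, above the others of that group. Atg5 was at 790.4 in FL/FL replicate 3, below the others. None of these 3 genes was past the threshold.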

How the results depend on the processing

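The calls among autophagy genes sit near the threshold. The count of members higher, 3, was 5 with the replicate block, 0 with the macrophage covariate, 0 without the 3 libraries highest in macrophage markers, and 1 to 3 when 1 library was left out. The count lower, 0, was 3 in DESeq2, 1 with the filter at 100 normalized counts, 1 with a pseudocount of 10, 1 with the macrophage covariate, 4 with the replicate block, and 0 to 1 when 1 library was left out. For the related lists, 7 higher became 11 with the block, 2 with the covariate, 1 without the 3 libraries and 3 to 7 with 1 left out; 3 lower became 12, 2, 0 and 2 to 5, and 6 in DESeq2. Over all genes, 611 higher and 700 lower became 1243 and 1292 with the block (2535 in all), 295 and 370 with the covariate (665), and 167 and 305 without the 3 libraries (472), with the share of calls that were higher going from 46.6% to 35.4%; with 1 left out, 389 to 588 were higher. The replicate numbers do not pair the libraries by any label. Deviations of same-numbered libraries correlated at 0.217, 0.092, 0.048 and 0.113, and not every library correlated best with its own number. No called member changed sign under the 18 settings; 20 uncalled members did in at least 1. Quantile normalization, edgeR, no filter and a pseudocount of 0.5 changed no member's call. The B cell marker difference, -0.34 as a mean log2, was -0.85 as a sum (exact permutation p = 0.0286), the CD8 one fell from 0.83 to 0.26 and the Treg one went from -0.22 to -0.03. Leaving Axl out of the macrophage markers, an alternative chosen after seeing the data, gave 1.90 in place of 1.74. Depth limits Wipi1, Optn, Atg4c and Bnip3. The cause of these shifts was not tested.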
